A study of Mus musculus with 4 samples.

Results

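The 12-week-DB library was compared with the 12-week-WT library inside 5 gated leukocyte lineages, to find which genes differed alike in every lineage and which differed in 1 lineage only. A cell entered the macrophage gate with a summed count of at least 10 unique molecular identifiers (UMIs) of C1qa, C1qb and C1qc. The dendritic gate took cells with at least 10 UMIs of H2-Aa, a C1q sum under 5 and no Cd79a, and the T gate took cells with at least 1 UMI of Cd3e and a C1q sum under 5. The gate for type 2 innate lymphoid cells (ILC2) asked for at least 2 UMIs of Gata3, no Cd3e and a C1q sum under 5, and the mast gate for at least 1% of a cell's UMIs from Cpa3, Cma1, Mcpt4 and Tpsb2. These gates held 9532 cells, 4174 from 12-week-WT and 5358 from 12-week-DB, of 11823 kept 12-week cells and 27800 kept cells in the series. A kept cell had 200 or more detected genes, and mitochondrial genes made up no more than 10% of its UMIs.

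DB mice were males homozygous for the Lepr db allele on the C57BLKS/J background, and WT mice were male littermates with 2 wild-type Lepr alleles. The hind limbs were not injured, and the label Young stands for 12 weeks of age. Both hindpaws were digested with collagenase, and CD45+ cells were sorted and pooled from 2 to 3 mice into 1 library per condition (10x Genomics 3' chemistry). With 1 library per condition there was no replicate and no test was possible, so a difference between genotypes cannot be told apart from a difference between these pools, their digestion, their sort or their library preparation. Values are counts per 1e6 UMIs of the gate (CPM), log2 ratios are DB over WT, and the 95% intervals are exact and cover counting error only. A different mix of cell states inside a gate and a different level per cell cannot be told apart in these sums.

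The leptin receptor carries the signal of the adipocyte hormone leptin, and mice without its long form overeat and become obese and hyperglycemic. Skin and paw tissue hold resident macrophages, dendritic cells, T cells, ILC2 and mast cells, which are separate in lineage and share one tissue and one circulation.

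The macrophage gate held 1663 WT and 1767 DB cells, the dendritic gate 992 and 918, the T gate 829 and 1656, the ILC2 gate 441 and 846, and the mast gate 346 and 299. The T gate took 15.7% of kept cells in WT and 25.3% in DB, and the macrophage gate 31.6% and 27.0%. Median UMIs per cell were 9248 and 10744 in the macrophage gate and 2096.5 and 1612 in the mast gate, the shallowest of the 5. Each marker list had its highest summed level in its own gate in both libraries, with all 8 macrophage, 9 dendritic, 8 T, 8 ILC2 and 9 mast markers above 0 in their gate. The macrophage, T, ILC2 and mast lists include the genes that define their gates, so the gating itself favours this order. The dendritic list lacks H2-Aa but holds the MHC class II pathway genes Cd74, H2-Ab1 and H2-Eb1, so its gate favours it as well. All 8 macrophage and all 9 mast markers were also above 0 in every other gate. Cells in more than 1 gate numbered 97 in WT and 128 in DB and were counted in each, and 41 barcodes occurred in both libraries. Lepr had 28 UMIs in WT and 16 in DB over all kept cells. Counts per gene do not read the allele, so the genotype was not checked. Xist at 4 and 7 UMIs and Ddx3y at 4770 and 6444 matched the male sex given in the study's methods. The ribosomal-repeat transcript Gm42418 took 61720 CPM of all kept WT cells and 41690 CPM of kept DB cells.

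A gene was measured in a lineage with at least 50 UMIs over both libraries, and the gate genes were left out. In the macrophage gate, 553 of 11837 measured genes (4.67%) were at least 1.5-fold higher in DB and 899 (7.59%) at least 1.5-fold lower. The dendritic gate had 4.72% higher and 3.88% lower, the T gate 7.53% higher and 3.51% lower, the ILC2 gate 4.77% higher and 6.56% lower, and the mast gate 5.07% higher and 8.16% lower. Few of these differences were common to the lineages. Of 4467 genes measured in all 5 lineages, 3507 passed 1.5-fold in none, 374 were higher in exactly 1 lineage and 458 lower in exactly 1. Only Fxyd2 (0.0224%) was at least 1.5-fold higher in all 5, and Ifi27l2a and Egr1 (0.0448%) were at least 1.5-fold lower in all 5. Of the 4467, 65 genes were past 1.5-fold in opposite directions in different lineages.

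Fxyd2 encodes the gamma subunit that regulates the sodium-potassium pump. It stood at 938 CPM in WT and 3568 CPM in DB macrophages, 3.80-fold higher (log2 1.93, interval 1.90 to 1.95). Dendritic cells had 175 and 1005 CPM (log2 2.52, interval 2.46 to 2.59), and the T gate 30.8 and 242 CPM (log2 2.97, interval 2.76 to 3.19). The ILC2 gate had 21.2 and 126 CPM, and the mast gate 58.8 and 204 CPM from 53 and 135 UMIs. DB was above WT in each lineage, and the order of the lineages had macrophages first and dendritic cells next in both libraries. The log2 ratio of Fxyd2 was above 0 in all 6 subsets examined. It was 2.39 in macrophages with no Lyve1 UMI and 1.83 in those with 1 or more, and in the T gate it was 2.99 without and 2.97 with Trdc, the constant chain of gamma-delta T cells.

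The levels of Fxyd2 outside the macrophage gate were set beside those of macrophage markers. As a share of its own macrophage level, Fxyd2 in the T gate was 3.29% in WT and 6.77% in DB. The 5 macrophage markers Pf4, Apoe, Csf1r, Adgre1 and Mrc1 ranged there from 1.74% to 6.46% in WT and from 2.34% to 7.51% in DB. In the ILC2 gate Fxyd2 was at 2.26% and 3.53% against marker ranges of 1.64% to 9.32% and 1.81% to 7.13%. In the mast gate it was at 6.27% and 5.71% against 8.94% to 38.5% and 4.47% to 31.1%. Fxyd2 sat within the range of these markers in the T, ILC2 and mast gates, or below it in the WT mast gate. Whether its UMIs there came from these cells or from macrophage RNA was not tested. Its values there are not read as expression by these cells. With 10% free RNA removed, Fxyd2 had no ratio in the T and ILC2 gates and 0.46 in the mast gate. In dendritic cells the share was 18.7% and 28.2%, with the markers at 2.40% to 29.7% in WT and 3.20% to 50.2% in DB, so the dendritic value also lay inside the marker range.

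Ifi27l2a, an interferon-inducible mitochondrial protein gene, had the opposite pattern. Its level was 625 CPM in WT and 153 CPM in DB macrophages (log2 -2.03, interval -2.09 to -1.97) and 195 and 54.6 CPM in dendritic cells (log2 -1.84). The T gate had 91.4 and 38.5 CPM (log2 -1.247), the ILC2 gate 32.9 and 14.9 CPM (log2 -1.15), and the mast gate 77.7 and 22.6 CPM from 70 and 15 UMIs. In the T gate its share of the macrophage level, 14.6% in WT and 25.2% in DB, was above the whole marker range of 1.74% to 6.46% and 2.34% to 7.51%. That share is of the whole gate, and its subsets were unlike. T gate cells with no Trdc UMI had 180 CPM in WT and 79.6 CPM in DB, and those with 1 or more had 28.7 and 10.6 CPM. In the ILC2 gate the share was 5.27% in WT, inside the marker range, and 9.71% in DB, above it. In the mast gate, 12.4% and 14.8% lay inside it. Ifi27l2a was not among the genes lower in all 5 lineages once cells of several gates or the top doublet scores were left out, nor with free RNA removed. Its ratio stayed below 0 in every compared lineage in 10 of the 11 alternatives with a finite value in each.

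Egr1, an immediate-early transcription factor gene, was lower in all 5 lineages. It stood at 247 CPM in WT and 110 CPM in DB macrophages (log2 -1.17, interval -1.24 to -1.10) and at 142 and 77.2 CPM in dendritic cells (log2 -0.88). The T gate had 192 and 108 CPM (log2 -0.83), and the ILC2 gate 293 and 143 CPM (log2 -1.03). The mast gate had the highest level, 2895 CPM in WT and 1769 CPM in DB (log2 -0.71, interval -0.81 to -0.61). In WT the order of the lineages was thus mast, ILC2, macrophage, T and dendritic.

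**Figure D1:**
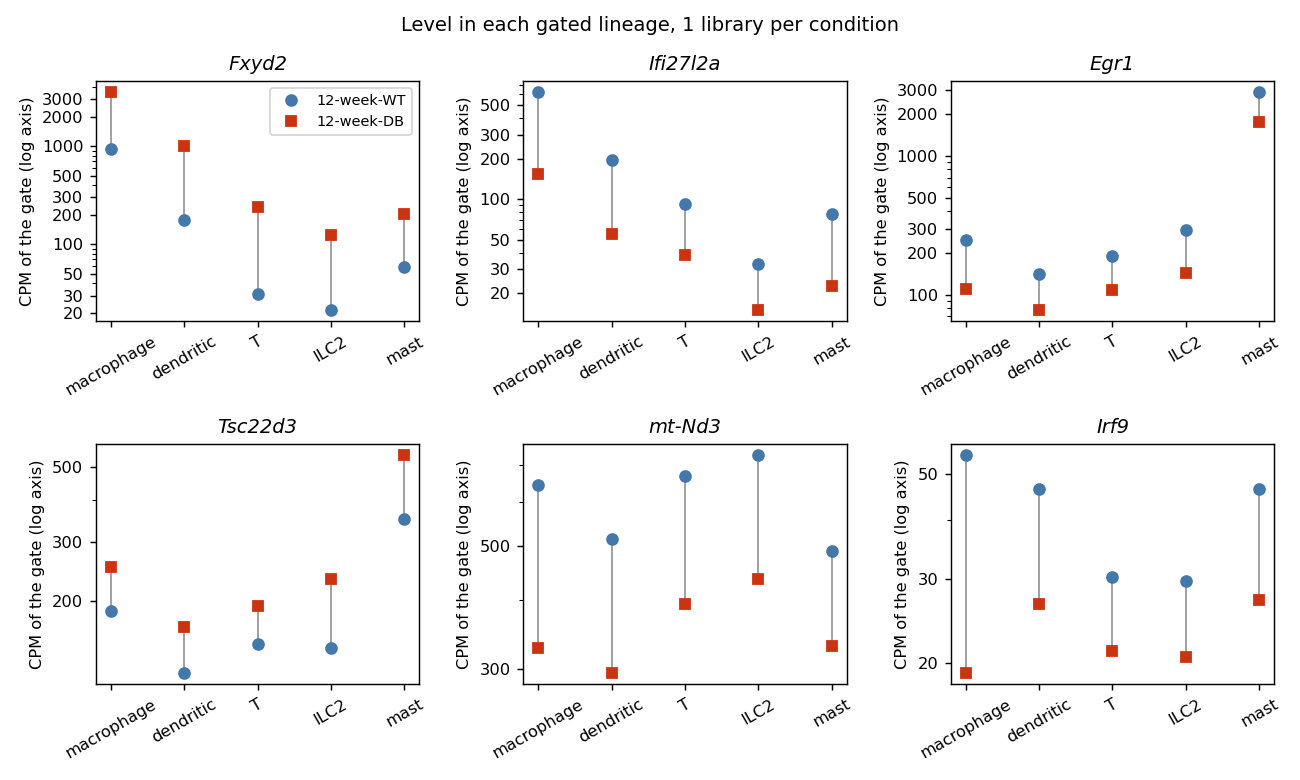
CPM (log axis) of 6 genes in the 5 gated lineages, with circles for 12-week-WT, squares for 12-week-DB and a grey line joining the 2 libraries of a lineage. Fxyd2 and Tsc22d3 were higher in DB and Ifi27l2a, Egr1, mt-Nd3 and Irf9 lower in DB in each lineage, with Egr1 highest in mast cells at 2895 CPM in WT.

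At a lower limit, a log2 ratio of 0.32 in each lineage, 12 genes (0.269% of 4467) were higher in all 5 and 15 (0.336%) lower in all 5. The genes named at this limit, beyond Fxyd2, Ifi27l2a and Egr1, were chosen after their values were seen. For comparison, 631 of the 4467 genes had a positive ratio in all 5 lineages and 363 a negative one.

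Tsc22d3, which encodes the glucocorticoid-induced leucine zipper protein, was higher in DB in all 5. Its levels were 187 and 253 CPM in macrophages, 122 and 168 in dendritic cells, 150 and 193 in the T gate, 145 and 232 in the ILC2 gate and 350 and 544 in the mast gate. The log2 ratios ran from 0.37 in the T gate to 0.68 in the ILC2 gate, and each interval stayed above 0. Wee1, a kinase that holds back entry into mitosis, had ratios from 0.44 in the T gate to 1.14 in the mast gate, where it went from 49.9 to 110 CPM. Pde4d, a phosphodiesterase that breaks down cyclic AMP, had ratios from 0.50 in the mast gate to 0.86 in macrophages. H1f0, a linker histone gene, ranged from 0.46 to 0.69, and Dnaja4, a co-chaperone of the heat shock protein 70 family, from 0.44 to 0.84. Gcnt1, a glycosyltransferase that branches O-glycans, ranged from 0.35 to 0.79. Blvrb, a biliverdin reductase, ranged from 0.34 to 0.94, Fmc1, an assembly factor of the ATP synthase, from 0.32 to 0.91, and the non-coding transcript Gt(ROSA)26Sor from 0.36 to 0.90. The interval of H1f0 reached -0.0031 in the mast gate, that of Dnaja4 -0.0067 in dendritic cells, and that of Blvrb in the ILC2 gate reached -0.19. Some of these ratios differed between the subsets of a lineage. Gcnt1 had -0.13 (interval -0.38 to 0.12) in macrophages with no Lyve1 UMI and 0.62 in those with 1 or more. Dnaja4 had 2.13 in the former, from 11 and 73 UMIs (interval 1.21 to 3.20), and 0.04 in the latter (interval -0.56 to 0.64). Fmc1 had -0.03 in the T gate without Trdc and 0.56 with it, but the intervals, -0.41 to 0.36 and 0.24 to 0.885, overlapped.

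Lyz1, a lysozyme gene of myeloid cells, and Ecm1, a secreted matrix protein gene, were the other members of the higher list, and both were highest in macrophages. Lyz1 stood at 760 and 1839 CPM in macrophages and at 245 and 1258 CPM in dendritic cells. In the T gate 39.8% of its WT UMIs came from 1 cell, and in the mast gate 66.7%. As a share of its macrophage level, Lyz1 stood at 6.36% and 9.66% in the T gate, 2.05% and 6.10% in the ILC2 gate and 10.96% and 6.65% in the mast gate, inside the marker ranges given for Fxyd2 except in the DB T gate. Ecm1 stood at 757 and 1432 CPM in macrophages, 288 and 632 in dendritic cells and 55.1 and 136 in the T gate. Its log2 ratio was 0.57 in the ILC2 gate and 0.56 in the mast gate. With 10% free RNA removed it was -4.37 in the ILC2 gate and above 0 in the other lineages. Whether its UMIs outside the macrophage gate came from macrophage RNA was not tested. At 21 weeks the ratio of Ecm1 was -0.26 in the T gate and above 0 in the other lineages. The 250 bases before its annotated start are shown because they hold a TATA box, the core promoter element, 27 bases before the start (RefSeq, GRCm38.p6, chr3:95739570-95739819, minus strand, 5′ to 3′ of the gene, motif in capitals):
Ecm1: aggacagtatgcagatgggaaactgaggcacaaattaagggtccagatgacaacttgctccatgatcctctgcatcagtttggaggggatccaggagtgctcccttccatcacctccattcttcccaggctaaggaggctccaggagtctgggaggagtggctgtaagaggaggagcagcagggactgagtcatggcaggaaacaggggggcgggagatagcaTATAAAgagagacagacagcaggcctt

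Among the lower genes, Irf9 encodes a subunit of the factor that carries interferon signals to the nucleus. It stood at 55.0 and 19.0 CPM in macrophages, 46.6 and 26.6 in dendritic cells, 30.4 and 21.1 in the T gate, 29.7 and 20.6 in the ILC2 gate and 46.6 and 27.2 in the mast gate. Its log2 ratio ran from -1.53 in macrophages to -0.52 in the T gate, and its interval in the mast gate, from 42 and 18 UMIs, reached 0.05. Ier5, an immediate early response gene, ranged from -0.84 to -0.38. Chka, which starts phosphatidylcholine synthesis, ranged from -0.75 to -0.40. Tfrc, the transferrin receptor, ranged from -0.79 to -0.37, but had 0.20 in dendritic cells with no UMI of Cd209a and -0.60 in those with 1 or more.

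Arl4d, which encodes a small GTPase of the Arf family, had 39.7 CPM in WT and 10.9 CPM in DB in the ILC2 gate (log2 -1.86, interval -2.30 to -1.43). Its ratio was -1.02 in macrophages and -0.37 in the mast gate, where the interval reached 0.37. Its promoter is shown because it was the only searched promoter of the lists with a match to the cyclic AMP response element, 26 bases before the start (RefSeq, GRCm38.p6, chr11:101665291-101665540, plus strand, motif in capitals):
Arl4d: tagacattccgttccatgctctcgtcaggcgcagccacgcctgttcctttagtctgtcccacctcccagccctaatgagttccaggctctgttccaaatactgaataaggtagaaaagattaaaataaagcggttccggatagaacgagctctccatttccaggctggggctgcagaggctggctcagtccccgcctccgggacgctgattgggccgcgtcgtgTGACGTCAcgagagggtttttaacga
Promoter entries were found for 16 of the 27 genes of both lists. On either strand, 5 of the 16 held at least 1 of 7 motifs in these 250 bases. The share of all promoters with any of the 7 was not computed, so this count is not read as an excess. The share of 32851 mouse promoters with each motif was 6.02% for the E-box CACGTG, 0.819% for the D-box TTATGTAA, 1.55% for the cyclic AMP response element TGACGTCA and 10.2% for the antioxidant response element TGACNNNGC. It was 12.5% for the metal response element TGCGCNC, 12.4% for the TATA box TATAAA and 7.13% for the interferon-response-like GAAANNGAA, a motif added after the values were seen. A match describes letters and not binding.

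The mitochondrial transcripts mt-Nd3 and mt-Nd2, subunits of respiratory complex I, were lower in all 5 as well. mt-Nd3 stood at 644 and 327 CPM in macrophages, 515 and 295 in dendritic cells, 669 and 393 in the T gate, 732 and 436 in the ILC2 gate and 491 and 331 in the mast gate. Gm42418 was lower in each lineage, with ratios from -1.08 in the mast gate to -0.56 in the T gate. The median mitochondrial share per cell was lower in DB in 4 lineages, for example 3.59% and 2.74% in macrophages and 4.70% and 3.99% in the ILC2 gate, and was 2.40% and 2.54% in the mast gate. With totals recomputed by leaving Gm42418, AY036118 and the mitochondrial genes out, 1 gene was higher and 3 lower in all 5 lineages.

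Stab1, a scavenger receptor gene, and Cbr2, a carbonyl reductase gene, were macrophage genes with low counts in the other gates. Cbr2 had 501 and 221 CPM in macrophages, and 30 to 96 WT UMIs in each other gate. Marcks, a substrate of protein kinase C, had 621 and 300 CPM in macrophages (log2 -1.05), 703 and 556 in dendritic cells (log2 -0.34) and 126 and 76.8 in the T gate (log2 -0.72). In the T gate Marcks had -0.89 without and 0.03 with Trdc, and Stab1 had 0.13 without and -1.02 with it. The 2 intervals of Stab1, -0.60 to 0.89 from 25 and 48 UMIs and -1.725 to -0.33 from 39 and 35 UMIs, overlapped. Gm8797 ranged from -0.72 in the ILC2 gate to -0.43 in the mast gate.

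**Figure D2:**
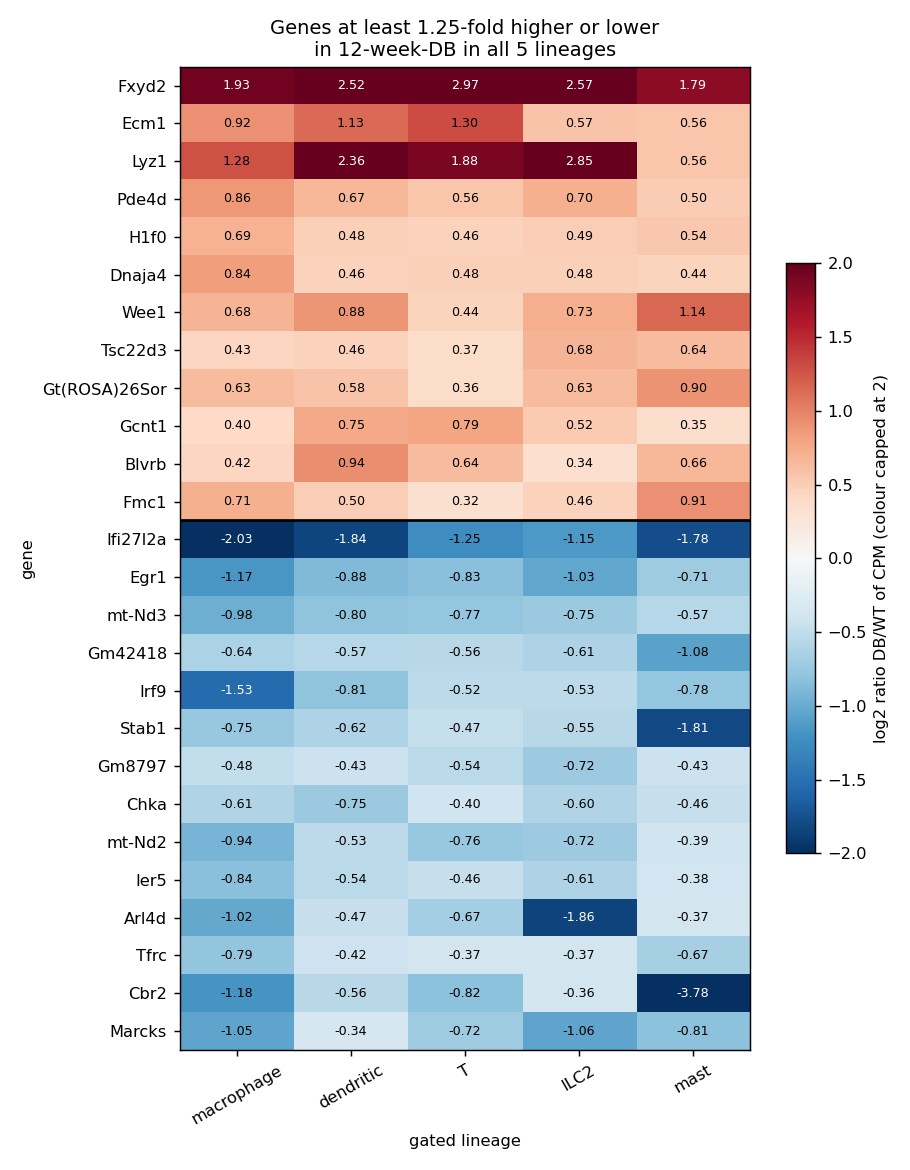
Log2 ratio DB/WT of CPM (colour, capped at 2, with the value printed) of 26 of the 27 genes with a log2 ratio of at least 0.32 in either direction in all 5 gated lineages (columns). The 12 genes above the line were higher and the 14 below it lower, and Fxyd2 at the top ranged from 1.79 in the mast gate to 2.97 in the T gate.

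The mast gate limited this comparison, since 4655 genes were measured there against 9866 to 11837 in the other lineages. In the 4 lineages without mast cells, 12 of 9372 genes (0.128%) were at least 1.5-fold higher in each and 18 (0.192%) lower in each. The higher list held Fxyd2, Clec4d, Lyz1, Mucl1, Arg1, Gm15912, Ifitm6, Cd207, Ccl6, Dbp, Itgb3bp and Alox5. The lower list held Ifi27l2a, Caprin2, Il17a, Krt14, Itgax, Ebf1, Egr1, Igkc, mt-Nd3, Aqp3, Rnase6, Slc27a3, Arc, Ms4a4c, Prr5l, Jun, Cadm1 and Kif20a. These lists were looked at after the values were seen, and several members rested on 1 cell. Mucl1 drew 93.4% of its DB UMIs in the T gate and 94.1% in the ILC2 gate from 1 cell, and it had 0 WT UMIs in the ILC2 gate, so no ratio is given there. Krt14, a basal keratinocyte keratin, drew 86.9% of its WT UMIs in the T gate from 1 cell, and keratinocyte markers in the ILC2 gate summed to 909 CPM in WT and 207 CPM in DB, with all 6 above 0 in both. Igkc and Ebf1 are B cell markers. In the T gate 5 of 6 B cell markers were lower in DB, while Ighm, the immunoglobulin M heavy chain, had 112 and 396 CPM and carried their sum from 218 to 441 CPM.

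Itgb3bp, which encodes centromere protein R, had few UMIs and a large ratio in each lineage. It stood at 3.50 and 10.7 CPM in macrophages (log2 1.61, interval 1.20 to 2.04), 1.63 and 7.25 in dendritic cells (log2 2.15), 3.88 and 10.2 in the T gate (log2 1.40) and 9.11 and 14.4 in the ILC2 gate (log2 0.66, interval 0.05 to 1.30). The mast gate had 8 and 15 UMIs. The gene lies at chr4:99765402-99929813 on the minus strand (mm10), 1.79 Mb from Lepr at chr4:101717404-101815352. Within 5 Mb of Lepr, Itgb3bp was the only one of 16 genes measured in the 4 lineages that passed 1.5-fold in each, and the median ratio of the 16 was 0.06. Leprot, the neighbour of Lepr, had 92.0 CPM in WT and 89.3 CPM in DB over all kept cells.

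The gene lists, drawn up with earlier results of these data known, place these genes among others of their pathways. Over all measured genes, 7.59%, 3.88%, 3.51%, 6.56% and 8.16% were at least 1.5-fold lower in the macrophage, dendritic, T, ILC2 and mast gates. Interferon-stimulated genes had their lowest medians in macrophages and dendritic cells. In macrophages, 21 of 26 measured members were at least 1.5-fold lower and 0 higher, with a median of -1.38, against a median of 0.01 over all measured genes. Dendritic cells had 13 of 23 lower and a median of -0.86. The T gate had 4 of 20 lower and 1 higher (median -0.29), the ILC2 gate 3 of 15 lower (median 0.03) and the mast gate 3 of 7 lower (median -0.56), or 1 of 5 with cells of several gates left out. Among members measured in all 5, Trim30a, an interferon-inducible gene of the tripartite motif family, ran from -0.80 in dendritic cells to -0.13 in the ILC2 gate. Ly6e, an interferon-inducible surface protein gene, had 428 and 151 CPM in macrophages (log2 -1.51) and 931 and 987 CPM in the ILC2 gate (log2 0.08). Interferon is also known to raise MHC class I genes. Of 17 class I and peptide loading genes, 9 were at least 1.5-fold lower in macrophages, 6 in dendritic cells and 0 in the T and ILC2 gates, and 1 of 9 in the mast gate. B2m, the class I light chain, went from 2629 to 1294 CPM in macrophages (log2 -1.02) and from 1750 to 1514 CPM in the ILC2 gate (log2 -0.21). H2-K1, a classical class I heavy chain, had ratios of -0.97, -0.61, -0.33, -0.05 and -0.61 in the macrophage, dendritic, T, ILC2 and mast gates.

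Early response genes, which are switched on within minutes of stimulation, had negative medians in each lineage but the mast gate. The shares of all genes at least 1.5-fold lower were 7.59%, 3.88%, 3.51%, 6.56% and 8.16% in the macrophage, dendritic, T, ILC2 and mast gates. Those at least 1.5-fold higher were 4.67%, 4.72%, 7.53%, 4.77% and 5.07%. In macrophages, 11 of 23 were at least 1.5-fold lower and 0 higher (median -0.57). Dendritic cells had 2 of 23 lower, with all 23 below 0 (median -0.36). The T gate had 5 lower and 1 higher (median -0.23), the ILC2 gate 6 lower and 0 higher (median -0.28), and the mast gate 2 lower and 2 higher of 21 (median 0.00). Jun, a subunit of the AP-1 factor, had ratios of -1.15, -0.74, -0.72, -0.60 and -0.15 in the same order of lineages, with 3334 and 3001 CPM in the mast gate. Zfp36, which destabilizes cytokine transcripts, ran from -0.75 in macrophages to 0.23 in the mast gate. The list of NF-kB and inflammatory genes had 7 of 21 lower and 0 higher in macrophages, and 0 lower and 3 higher in dendritic cells. The T gate had 4 lower and 2 higher of 19, the ILC2 gate 5 lower and 1 higher of 19, and the mast gate 5 lower and 2 higher of 17. With cells of several gates left out, the T gate had 1 lower and 3 higher. Cd83, a marker of activated dendritic cells, ranged from -1.91 in the mast gate to -0.09 in dendritic cells. Ccl2, a monocyte chemoattractant, had 327 and 170 CPM in macrophages and 995 and 978 CPM in the mast gate.

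Clock genes had more members higher than lower in 3 lineages. The list had 5 of 16 higher and 2 lower in macrophages, 5 of 15 higher and 0 lower in dendritic cells, 5 of 16 higher and 1 lower in the T gate, 1 higher and 2 lower of 16 in the ILC2 gate, and 1 higher and 2 lower of 8 in the mast gate. Over all genes, 4.67%, 4.72%, 7.53%, 4.77% and 5.07% were higher in the macrophage, dendritic, T, ILC2 and mast gates. In the same order, 7.59%, 3.88%, 3.51%, 6.56% and 8.16% were lower. With cells of several gates left out, the dendritic gate had 3 of 15 higher and its median went from 0.50 to 0.28. Tef and Nr1d2 were the members of largest median ratio among those measured in all 5. Tef, a D-box-binding activator, had 31.5 and 53.4 CPM in macrophages (log2 0.76) and 59.9 and 64.9 CPM in the mast gate (log2 0.12). Nr1d2, a repressor of the loop, ranged from 0.17 in the ILC2 gate to 0.62 in the mast gate. Other members were singled out after their values were seen. Dbp, another D-box-binding activator, had 10.3 and 29.8 CPM in macrophages (log2 1.53, interval 1.29 to 1.78), and ratios of 0.74, 0.77 and 0.99 in the dendritic, T and ILC2 gates. Per3, a period gene, had ratios of 0.69, 1.06, 1.03 and 0.39 in these 4 lineages, and Arntl, which encodes the activator of the loop, had -0.59, 0.45, -0.10 and -0.50. The promoter of Per3 is shown because it holds the letters of the D-box that Dbp and Tef bind, 205 and 158 bases before the start (RefSeq, GRCm38.p6, chr4:151044666-151044915, minus strand, motifs in capitals):
Per3: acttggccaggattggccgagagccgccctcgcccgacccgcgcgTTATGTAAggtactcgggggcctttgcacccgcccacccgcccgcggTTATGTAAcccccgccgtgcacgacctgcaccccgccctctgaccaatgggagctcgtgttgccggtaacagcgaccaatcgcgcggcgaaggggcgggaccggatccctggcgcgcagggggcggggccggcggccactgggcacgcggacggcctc

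Glucocorticoid-responsive genes, a list that holds Tsc22d3, went in both directions, with medians from -0.16 in the ILC2 gate to 0.12 in the mast gate. The list had 2 higher and 3 lower of 19 in macrophages, 1 higher and 0 lower of 19 in dendritic cells, and 1 higher and 0 lower of 18 in the T gate. In the same order, 4.67%, 4.72% and 7.53% of all genes were higher and 7.59%, 3.88% and 3.51% lower. The ILC2 gate had 2 higher and 4 lower of 17, beside 4.77% of all genes higher and 6.56% lower there. The mast gate had 3 higher and 1 lower of 15, beside 5.07% of all genes higher and 8.16% lower there. Fkbp5, a glucocorticoid-induced co-chaperone singled out after its values were seen, had ratios of 1.245 and 1.01 in macrophages and dendritic cells and 0.02 and -0.05 in the T and ILC2 gates. Sgk1, a kinase also induced by glucocorticoids, ran from -0.49 in the T gate to -0.08 in the mast gate. Mt2, a metallothionein, had 148 and 43.6 CPM in the ILC2 gate (log2 -1.76) and 132 and 249 CPM in the mast gate (log2 0.92).

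**Figure D3:**
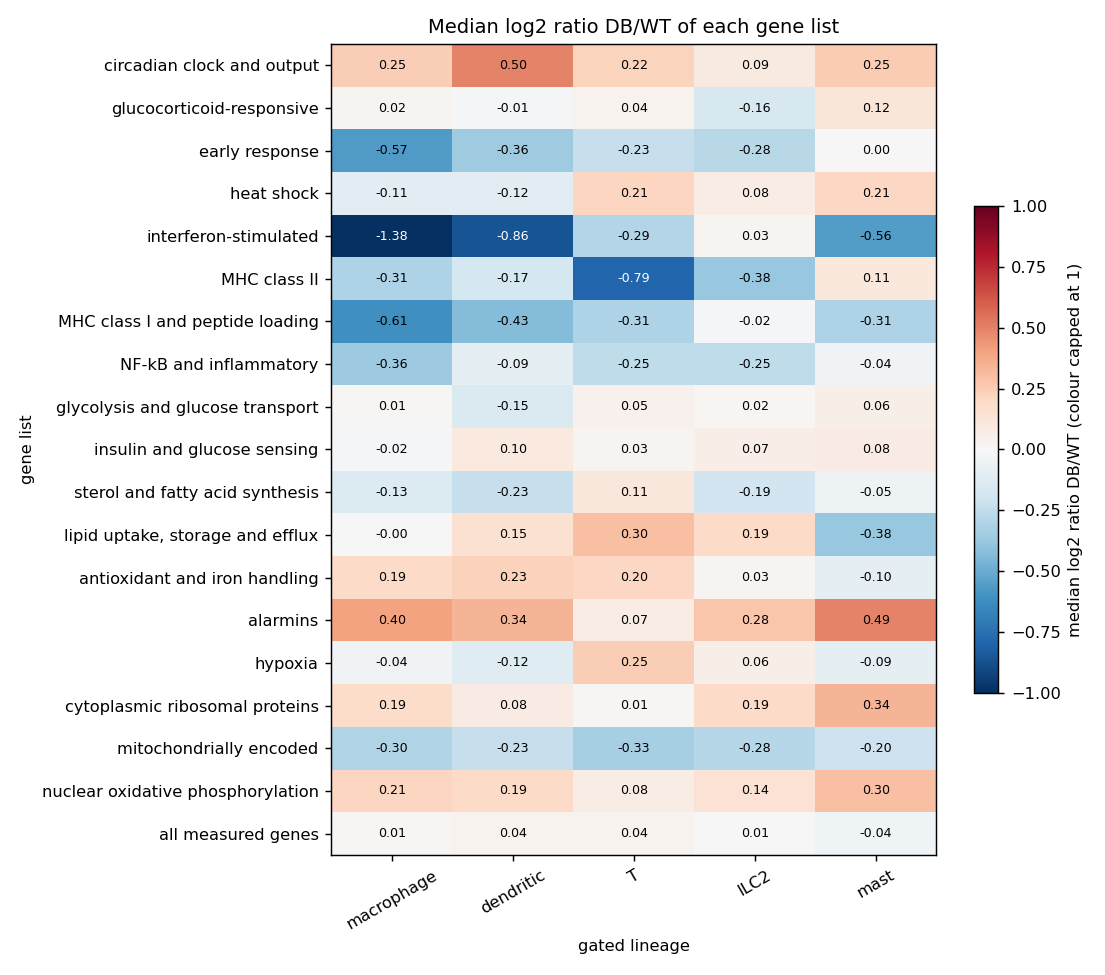
Median log2 ratio DB/WT (colour, capped at 1, with the value printed) of each gene list (rows) over its measured members in each gated lineage (columns), with all measured genes in the last row. The interferon-stimulated list reached -1.38 in macrophages and 0.03 in the ILC2 gate, and the medians of all measured genes lay between -0.04 and 0.04.

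Metabolic lists had small medians. Glycolysis and glucose transport genes had medians from -0.15 to 0.06 and at most 1 member past 1.5-fold in either direction in a lineage. Genes of insulin and glucose sensing had medians from -0.02 to 0.10, sterol and fatty acid synthesis from -0.23 to 0.11, hypoxia from -0.12 to 0.25 and heat shock from -0.12 to 0.21. Antioxidant and iron handling genes had medians from -0.10 to 0.23. Lipid uptake, storage and efflux genes had 6 of 17 members higher and 1 lower in the T gate (median 0.30) and 1 higher and 3 lower of 11 in the mast gate (median -0.38). Of all measured genes, 7.53% were at least 1.5-fold higher and 3.51% lower in the T gate, and 5.07% higher and 8.16% lower in the mast gate. With cells of several gates left out, the mast gate had 1 higher and 0 lower of 6 (median 0.10), and the median of the ILC2 gate turned from 0.19 to -0.23. Macrophage markers in the mast gate summed to 2557 CPM in WT and 1505 CPM in DB, and their part in these values was not tested. Cd36, a fatty acid transporter of macrophages, had 947 and 1148 CPM in macrophages (log2 0.28) and 99.9 and 28.7 CPM in the mast gate (log2 -1.80).

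Genes for the respiratory chain differed by where they are encoded. Of 12 mitochondrially encoded genes measured in all 5 lineages, 9 had a ratio below 0 in each and 1 above 0 in each, with medians from -0.33 to -0.20. Of 75 nuclear genes of oxidative phosphorylation, 48 had a ratio above 0 in all 5 and 2 below 0, with medians from 0.08 to 0.30. Cytoplasmic ribosomal protein genes had 51 of 83 above 0 in all 5 and 0 below, with medians from 0.01 to 0.34. Among all 4467 genes measured in all 5 lineages, 631 were above 0 in each and 363 below 0 in each. Past 1.5-fold, 1 of 93 nuclear genes was higher in macrophages, where 4.67% of all genes were higher. In the mast gate 16 of 75 were higher, beside 5.07% of all genes. With cells of several gates left out, 20 of 72 were higher in the mast gate. Among alarmins, S100a6, a calcium-binding protein gene, had 5704 and 10980 CPM in macrophages (log2 0.95) and 1504 and 5183 CPM in the mast gate (log2 1.78), but 0.17 in the T gate. S100a9, a neutrophil calprotectin subunit, had 102 and 6.44 CPM in macrophages, where neutrophil markers summed to 236 CPM in WT and 76.5 CPM in DB, with all 6 above 0.

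MHC class II genes were lower in the T gate, with 7 of 9 members at least 1.5-fold lower and a median of -0.79. The dendritic gate had 1 of 9 lower (median -0.17), macrophages 0 of 8 (median -0.31), the ILC2 gate 1 of 8 (median -0.38) and the mast gate 0 of 5 (median 0.11). Cells entered the dendritic gate by at least 10 UMIs of H2-Aa, itself a class II gene. The class II level there was thus partly set by the gate and is not a free comparison. Of all measured genes, 3.51% were at least 1.5-fold lower in the T gate, 3.88% in the dendritic gate, 7.59% in macrophages, 6.56% in the ILC2 gate and 8.16% in the mast gate. Cd74, the invariant chain, had 3422 and 1935 CPM in the T gate (log2 -0.82) and 19040 and 17540 CPM in dendritic cells (log2 -0.12). Of the 6 dendritic markers that are not class II genes, 5 were lower in the T gate, among them Cd209a at 61.7 and 33.0 CPM, Mgl2 at 92.5 and 62.0 CPM and Flt3 at 23.7 and 16.6 CPM. The exception was Cd207, at 0.646 and 6.66 CPM. Counted as cells, 57 WT and 81 DB cells, 6.88% and 4.89% of the T gate, were also in the dendritic gate. With cells of several gates left out, 6 of 8 members were lower in the T gate (median -1.03), 4 of 6 in the ILC2 gate (median -0.74) and 1 of 3 in the mast gate (median -0.50). The part of dendritic cells in these differences was not tested.

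Genes past 2-fold in exactly 1 lineage and within 0.32 of 0 on the log2 scale in the other 4 numbered 11 higher (0.246% of 4467) and 25 lower (0.56%). Most of them, 6 higher and 24 lower, were in the mast gate, and none was in the ILC2 gate. The interval of the difference between the named lineage and the nearest other lineage left out 0 for 10 of the 11 and 16 of the 25. The genes were chosen by this difference in the same counts, so these numbers are not read as support for the lists. With cells of several gates left out, 7 of the 11 and 3 of the 25 remained in these lists.

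In macrophages, Cdk2ap2, which encodes a partner of cyclin-dependent kinase 2, had 128 and 266 CPM (log2 1.05, interval 0.98 to 1.12) and lay between -0.16 and 0.30 elsewhere. Basp1, a membrane-bound signalling protein gene, had 69.5 and 33.2 CPM (log2 -1.06) and lay between -0.31 and -0.02 elsewhere. In the T gate, Pdxk, the kinase that makes active vitamin B6, had 34.6 and 79.8 CPM (log2 1.21). Cwc25, a splicing factor gene, had 162 and 342 CPM (log2 1.08), and Carmil1, a regulator of actin capping, had 31.6 and 63.5 CPM (log2 1.005, interval 0.77 to 1.24).

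In the mast gate, the 3 higher genes of largest ratio were Tmem243 (19 and 33 UMIs, log2 1.24), Slc39a7, a zinc transporter gene (23 and 38 UMIs, log2 1.17), and Cbll1, a ubiquitin ligase gene (21 and 34 UMIs, log2 1.14). The difference of Cbll1 from the nearest lineage had an interval of -0.03 to 1.74. Lyve1 and Sae1 were among the 3 lower genes of largest ratio. Lyve1, a hyaluronan receptor of resident macrophages, had 123 and 16 UMIs (log2 -2.50), with 41.5% of the WT UMIs from 1 cell. Sae1, a subunit of the SUMO-activating enzyme, had 62 and 14 UMIs (log2 -1.70). Of the 24 lower genes, 11 had their highest WT level in the macrophage gate and 8 in the mast gate. The summed macrophage markers of the mast gate were 2557 CPM in WT and 1505 CPM in DB, with all 8 above 0 in both, and 10 WT and 2 DB cells of the mast gate were also in the macrophage gate.

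Without the mast gate, 29 of 9372 measured genes were higher and 21 lower in 1 lineage. The ILC2 gate held 14 higher and 13 lower, the T gate 10 and 2, macrophages 2 and 5 and dendritic cells 3 and 1. This was a larger set of genes, and 5 of the 29 and 1 of the 21 were also in the main lists. The ILC2 gate had the fewest UMIs of the 4, 3401723 in WT and 6123486 in DB. These counts are not read as a change particular to ILC2.

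**Figure D4:**
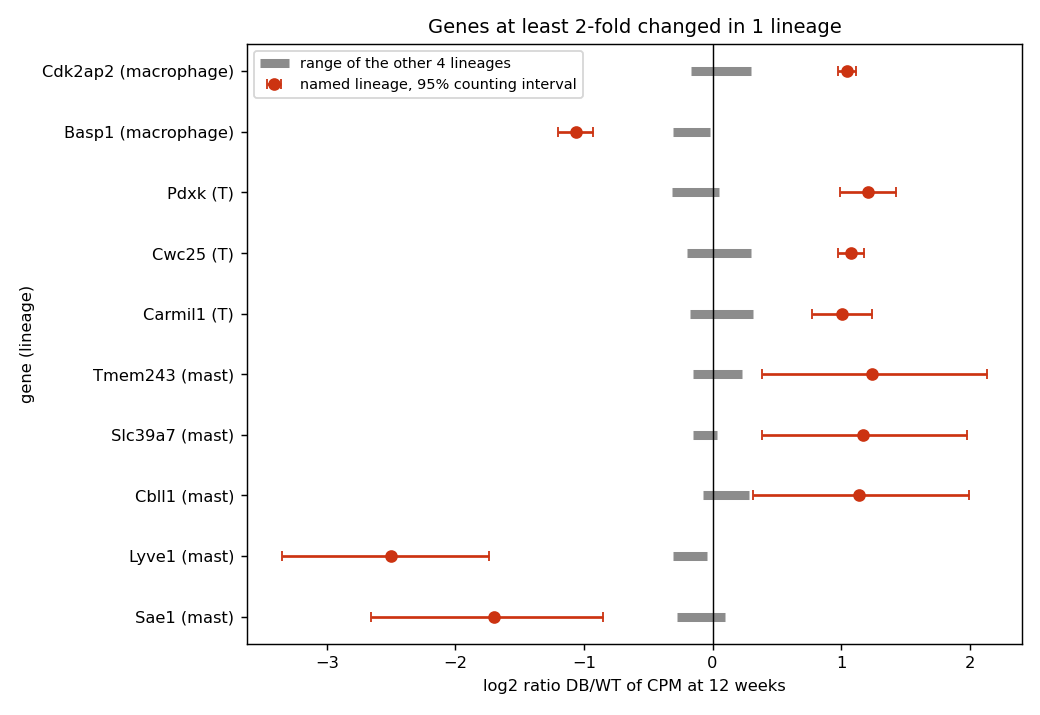
Log2 ratio DB/WT (x axis) of the named genes at least 2-fold changed in 1 gated lineage (in parentheses), as red points with 95% counting intervals, beside the range of the other 4 lineages (grey bars). The intervals were narrow for Cdk2ap2 and Cwc25 and wide in the mast gate, where Sae1 ran from -2.65 to -0.85.

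Some genes that had their highest level in 1 lineage were singled out after their values were seen. Ccl6, a chemokine, went from 415 to 1055 CPM in macrophages, while Ccl8, another chemokine, went from 432 to 158 CPM and Retnla, a marker of alternative activation, from 1910 to 890 CPM. In dendritic cells Cd207, the Langerin gene of Langerhans cells and some dermal dendritic cells, went from 26.7 to 110 CPM, while the chemokine Ccl17 went from 1088 to 312 CPM. In the T gate Il12rb2, a subunit of the interleukin-12 receptor, went from 32.8 to 89.5 CPM and Il17f, an effector cytokine, from 113 to 29.1 CPM. The immunoglobulin gene Iglc1 was also higher there, with 99.2% of its DB UMIs from 1 cell. In the ILC2 gate Il5, the eosinophil growth factor that ILC2 secrete, went from 25.6 to 82.5 CPM (log2 1.69), and Arg1, an arginase of activated ILC2, from 68.8 to 157 CPM. In the mast gate Il6 had 64 and 129 UMIs, with 27.9% of the DB UMIs from 1 cell.

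The 21-week libraries, also 1 per genotype and passed through the same gates, gave values that the rule for these genes did not use. Of the 12 higher genes, 6 were above 0 in all 5 lineages at 21 weeks (Fxyd2, Pde4d, Tsc22d3, Gt(ROSA)26Sor, Blvrb and Fmc1), against 832 of 4338 genes (19.2%) measured at that age. Of the 15 lower genes, 9 were measured in all 5 at 21 weeks and 6 of these were below 0 in each (mt-Nd3, Gm42418, Chka, mt-Nd2, Ier5 and Marcks), against 881 genes (20.3%). Tsc22d3 had ratios of 0.88, 0.71, 0.80, 0.79 and 1.16 at 21 weeks, above its 12-week ratio in each lineage. Gm42418 stood further apart at 21 weeks, at 80210 CPM in all kept WT cells and 22020 CPM in DB. Fxyd2 had 1.83, 3.04, 2.19, 1.10 and 1.58. Irf9 was below 0 in all 5, although its UMIs in the mast gate fell short of the minimum. Egr1 was at 0.07 in dendritic cells and between -1.01 and -0.17 elsewhere. Itgb3bp had ratios of 2.54, 2.79, 1.78 and 1.41 in the 4 lineages without mast cells. Wee1 and Gm8797 were opposite in all 5 lineages at 21 weeks. The interval included 0 in the macrophage, ILC2 and mast gates for Wee1, and in the dendritic and mast gates for Gm8797.

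**Figure D5:**
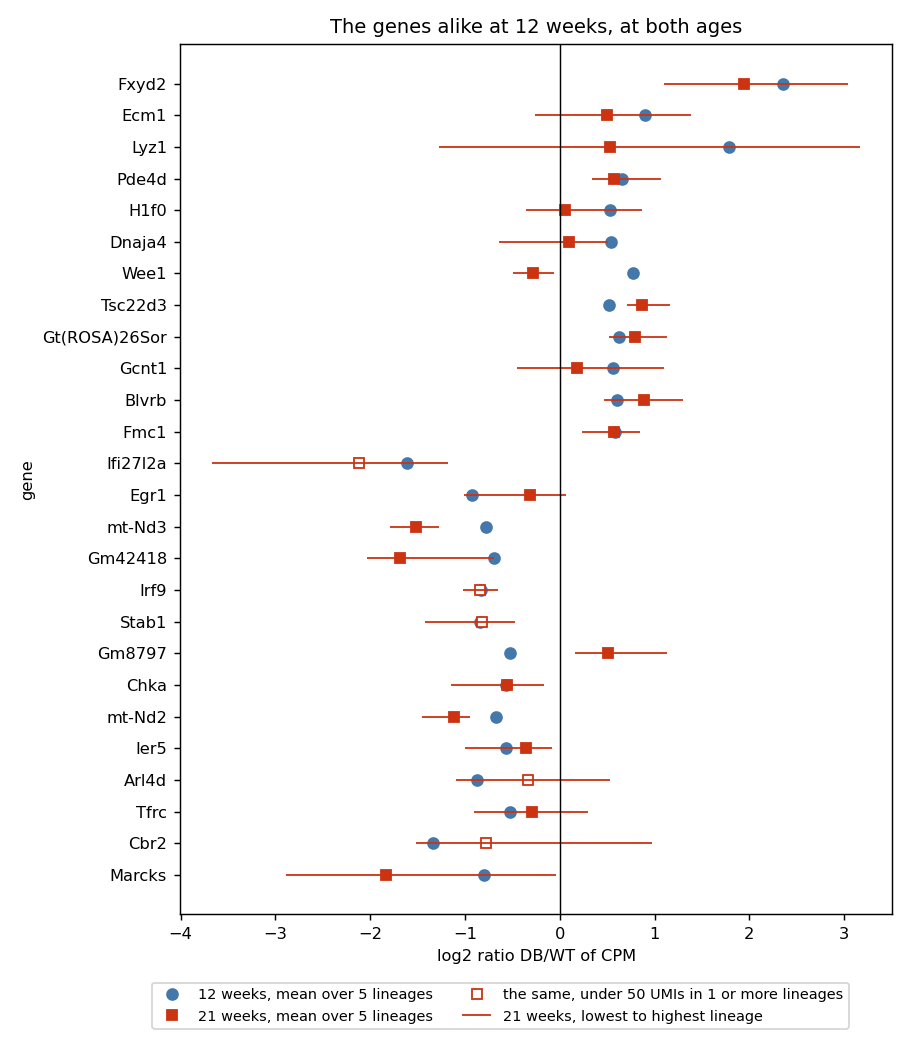
Log2 ratio DB/WT (x axis) of 26 of the 27 genes at 12 weeks (blue circles, mean of the 5 lineages) and 21 weeks (red squares, mean, with a line from the lowest to the highest lineage, open where a lineage had under 50 UMIs). Tsc22d3, Blvrb and mt-Nd3 lay on the same side of 0 at both ages, and Wee1 went from 0.77 to -0.28.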

How the data were processed

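CD45+ leukocytes of hindpaws were profiled by single-cell RNA-seq in 4 libraries, of which those at 12 weeks were compared here and those at 21 weeks used beside them. Ages in weeks come from the study's methods, since the labels give Young and Aged. The deposited values are UMI counts per gene and barcode, made by the authors with Cell Ranger and the mm10 genome. The file headers name version 5.0.0 at 12 weeks and 6.0.0 at 21 weeks. The study's methods also describe removal of free RNA and doublets. Neither was done here before the main comparison. A barcode was kept when it had 200 detected genes or more and no more than 10% of UMIs from mitochondrial genes, which left 5271 of 5998 in 12-week-WT and 6552 of 7463 in 12-week-DB, from 47851794 and 57025899 UMIs.

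Counts were summed over the cells of each gate and divided by the gate's total. A gene with at least 50 UMIs over both libraries was measured. Alike meant at least 1.5-fold in the same direction in all 5 lineages, and 1 lineage meant at least 2-fold there and a log2 ratio within 0.32 of 0 in the other 4. Intervals are exact conditional binomial (Clopper-Pearson) at 95% and cover counting error only. No test was run, since each condition had 1 library. The gates, members and lists were chosen with earlier results of these data known. Named were up to 15 alike genes per direction by their smallest ratio, the 3 largest 1-lineage genes per lineage and direction, Lepr, Leprot, Xist and Ddx3y as label checks, and list members of largest median ratio among those measured in all 5 lineages. Genes outside this rule are said to be chosen after their values were seen. Some genes that the rule names are not reported here, though they are counted. An alternative removed the top Scrublet scores, 253 WT and 391 DB cells. Of 32285 gene identifiers, 32158 were found in GENCODE vM21, which gave coordinates. Promoters came from RefSeq. Steps were tested on simulated data. Python 3.11.15, numpy 2.4.6, scipy 1.17.1, pandas 2.3.3 and scanpy 1.11.5 were used.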

Additional observations from a re-analysis of the deposited data

Results flagged for a closer look

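Cells outside the 5 gates were part of no comparison above. In the 1097 WT and 1194 DB kept cells of no gate, Fxyd2 stood at 331 and 2084 CPM, a log2 ratio of 2.653 (counting interval 2.59 to 2.72). Cells with a C1q sum of 5 to 9, 128 in WT and 193 in DB, entered none of the gates that limit C1q, so the cells of no gate can include macrophages, and macrophage markers were not computed for them. Ifi27l2a had 394 and 62.0 CPM there, and Egr1 287 and 254 CPM.

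Wee1 was higher in DB in all 5 lineages at 12 weeks and lower in all 5 at 21 weeks, where the mean log2 ratio was -0.2813 (lowest lineage -0.49, highest -0.06). Gm8797 was lower in all 5 at 12 weeks and higher in all 5 at 21 weeks, where the mean was 0.504. At 21 weeks the counting interval of Wee1 included 0 in the macrophage, ILC2 and mast gates (upper ends 0.01, 0.13 and 0.07). That of Gm8797 included 0 in the dendritic and mast gates (lower ends -0.03 and -0.25). The difference between the ages was not tested for either gene, since each condition had 1 library.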

How the results depend on the processing

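The main counts were 1 gene higher and 2 lower in all 5 lineages, and 11 higher and 25 lower in 1 lineage. In the same order, limits of 0.32 on the log2 scale (alike) and 1.5-fold (1 lineage) gave 12, 15, 137 and 206, and limits of 2-fold (alike) and 3-fold (1 lineage) gave 1, 1, 1 and 3. A minimum of 20 UMIs gave 2, 6, 45 and 122, a minimum of 200 UMIs gave 0, 1, 0 and 2, and no minimum with 0.5 added to each count gave 24, 66, 134 and 198. Median-of-ratios scaling gave 2 higher in all 5 and 15 lower in 1. Removing the top Scrublet scores gave 3 higher in all 5 and 11 lower in 1. Of the main 1-lineage genes it kept 6 of the 11 higher and 7 of the 25 lower. Leaving out cells of several gates gave 2 higher in all 5, and 18 higher and 12 lower in 1. This kept 7 of the 11 higher and 3 of the 25 lower 1-lineage genes. Carmil1, Tmem243, Cbll1, Basp1 and Lyve1 were not among those kept. Stricter gates gave 3 higher in all 5, and the mean of per-cell CPM gave 3 higher in all 5, and 31 and 43 in 1. Removing 10% free RNA gave 0 higher and 1 lower in all 5, and 22 higher in 1, and kept 6 of the 11 higher and 10 of the 25 lower 1-lineage genes. Chosen after seeing the data, free RNA removed up to the lowest macrophage marker gave 0 and 1, and 58 higher in 1. Leaving out the mast gate gave 12 and 18, and 29 higher in 1, and an ILC2 gate without Krt5 or Krt14 and a mast gate with a C1q sum under 5 gave 2 and 1, and 15 lower in 1. Ifi27l2a was not among those lower in all 5 with the top Scrublet scores removed (Egr1 and Ighm), cells of several gates left out (Arl4d and Egr1), the changed ILC2 and mast gates, the minimum of 200 UMIs or either free RNA removal (Egr1 alone in each). Fxyd2 was not among those higher under the last 3, and the 2-fold limit kept Ifi27l2a and not Egr1. In the mast gate Ifi27l2a had 70 and 15 UMIs and Fxyd2 53 and 135, under the minimum of 200 UMIs. The cause of the other shifts was not tested. With free RNA removed to that bound, Fxyd2 had no value in the mast gate and 3.68 and 4.37 in the T and ILC2 gates. Ifi27l2a was 4.30 in the mast gate, and Egr1, Irf9 and Tsc22d3 kept their direction in all 5. With 10% free RNA removed, Fxyd2 had no value in the T and ILC2 gates. It was then 1.92 in macrophages, 2.67 in dendritic cells and 0.46 in the mast gate. Egr1 kept its direction in every lineage under all 12 alternatives run for it, with a mean ratio between -0.99 and -0.88. Of the alternatives with a finite value in each lineage, Ifi27l2a kept its direction in 10 of 11 and Fxyd2 in 10 of 10. Of 435 recomputed single values, 57 moved outside their counting interval. A mean over the lineages was left out of the 435 where a lineage had no finite ratio. This was so for Fxyd2, Lyz1 and Cbr2 under both free RNA removals. It was also so under the 10% removal for Ifi27l2a, without a value in the ILC2 gate, and for Stab1. No paired analysis was possible because each condition had 1 library and no replicate numbers were shared. The mast gate, with 901146 UMIs in WT, set the depth limit.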
